A study of Homo sapiens with 6 samples.

Results

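The CDK inhibitor genes and the genes of the retinoblastoma (RB) family were examined in 6 RNA sequencing libraries of human cells labelled SKOV3, an ovarian carcinoma line. The group comprised the 3 CIP/KIP inhibitors CDKN1A, CDKN1B and CDKN1C, the 4 INK4 inhibitors CDKN2A, CDKN2B, CDKN2C and CDKN2D, and the 3 pocket protein genes RB1, RBL1 and RBL2, chosen by gene symbol. All 10 were found among the 20030 symbols listed per library, and all 10 passed the filter of at least 1 FPKM in at least 3 libraries. FPKM divides the fragments of a gene by its transcript length and by the mapped fragments in all, so levels can be set side by side between genes. Of the libraries, 3 were of cells exposed for 24 h to recombinant human CCL20 (rhCCL20), a chemokine that binds the receptor CCR6, in 5% trehalose, and 3 were of cells exposed for 24 h to the vehicle, 5% trehalose alone. Both groups therefore carried trehalose. The dose of rhCCL20 is not given in the sources used here, and no label ties the replicates to cultures of their own. Every p-value here therefore sets a difference against library-to-library spread, which may be technical.

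Cells pass from G1 into S phase when cyclin-dependent kinases phosphorylate the RB family proteins, which otherwise bind E2F transcription factors and hold back genes of DNA replication. INK4 proteins bind CDK4 and CDK6 and keep them from D-type cyclins, whereas CIP/KIP proteins bind cyclin-CDK complexes and are best known as inhibitors of CDK2. In ovarian and many other carcinomas this pathway is often disabled, by loss of CDKN2A or RB1 or by gain of a cyclin gene. SKOV3 is known as a line with deleted CDKN2A.

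The label was set against marker transcripts. Of 6 ovarian carcinoma markers, the surface proteins FOLR1 and MSLN averaged 53.6 and 26.3 FPKM over the 6 libraries. The transcription factors PAX8 and WT1 and the mucin MUC16 averaged 0.173, 0.014 and 0.00103 FPKM. ERBB2 lay between these, at 7.83 FPKM. The keratins KRT7, KRT8 and KRT18 were abundant, at 112, 641 and 588 FPKM, and KRT19, EPCAM and CDH1 were below 1 FPKM. The summed ovarian markers lay between 85.2 and 88.1 FPKM with rhCCL20 and between 88.5 and 90.2 FPKM in vehicle, with no overlap. Most of this sum was FOLR1 and MSLN, and how often sums of other genes separate the groups was not tested. The summed epithelial markers lay between 1241 and 1347 FPKM with rhCCL20 and between 1339 and 1418 FPKM in vehicle. Of these markers MSLN, KRT7, KRT8 and CDH1 were lower in every rhCCL20 library than in every vehicle library. Among tested genes this held for 1 of 3 ovarian and 2 of 3 epithelial markers, against 4.13% of all tested genes. CDH1 was at 0.0995, 0.101 and 0.127 FPKM in rhCCL20 replicates 1 to 3, against 0.200, 0.310 and 0.213 FPKM in vehicle replicates 1 to 3, and was not tested. MSLN averaged 25.4 FPKM with rhCCL20 and 27.3 FPKM in vehicle, KRT7 109 and 115 FPKM, and KRT8 623 and 659 FPKM, each with a limma adjusted p of 0.937. Of 10 leukocyte markers 8 averaged below 1 FPKM, and their summed level lay between 15.4 and 18.0 FPKM with rhCCL20 and between 12.9 and 19.01 FPKM in vehicle. Among them CD68 was the highest, averaging 11.1 FPKM over the 6 libraries, and made up most of the sum. LYZ was at 3.58, 2.92 and 4.27 FPKM in rhCCL20 replicates 1 to 3. In vehicle replicates 1 to 3 it was at 5.24, 0.692 and 0.469 FPKM. Of 8 fibroblast markers 5 and of 5 endothelial markers 5 averaged below 1 FPKM. The summed fibroblast level lay between 9.51 and 9.92 FPKM with rhCCL20 and between 9.83 and 10.3 FPKM in vehicle, and the summed endothelial level between 0.964 and 1.26 FPKM and between 0.886 and 1.22 FPKM in the same groups. The part of these markers in the results was not tested. As in any bulk sample, fewer cells with a transcript and less of it per cell cannot be told apart. With CDKN2A transcripts present, described next, the cells are called by their label only.

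CDKN2A encodes p16INK4a and, from an upstream first exon read in another frame, p14ARF. It lies on chromosome 9 from 21967753 to 21995301 on the minus strand (GENCODE annotation of GRCh38, from which all gene positions here are taken). It was at 17.4, 16.2 and 16.4 FPKM in rhCCL20 replicates 1 to 3, against 17.3, 15.9 and 15.3 FPKM in vehicle replicates 1 to 3. The groups overlapped, and the mean over the 6 libraries stood at percentile 68.5 of the 10263 tested genes. The gene-level value pools both starts. The 300 bases around each start in RefSeq (GRCh38.p14, 250 bases before to 50 after) are shown because the files give 1 value for the products of both, the first window lying at chr9:21974808-21975107 and the second at chr9:21995275-21995574, both on the minus strand.
CDKN2A, p16INK4a start: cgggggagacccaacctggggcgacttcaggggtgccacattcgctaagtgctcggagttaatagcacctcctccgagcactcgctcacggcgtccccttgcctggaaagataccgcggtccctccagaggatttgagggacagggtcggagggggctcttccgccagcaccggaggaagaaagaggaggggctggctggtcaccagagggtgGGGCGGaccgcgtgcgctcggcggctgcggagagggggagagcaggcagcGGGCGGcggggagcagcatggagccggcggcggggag
CDKN2A, p14ARF start: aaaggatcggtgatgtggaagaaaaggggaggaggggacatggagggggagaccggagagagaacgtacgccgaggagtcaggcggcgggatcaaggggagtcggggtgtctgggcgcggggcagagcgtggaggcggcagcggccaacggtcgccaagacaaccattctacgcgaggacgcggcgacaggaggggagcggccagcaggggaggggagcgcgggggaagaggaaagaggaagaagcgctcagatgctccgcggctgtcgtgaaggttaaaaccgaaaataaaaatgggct
Capitals mark the letters GGGCGG, the core of the binding motif of SP1, searched on both strands. The p16INK4a window held 2 such matches and 26 CpG dinucleotides, and the p14ARF window 0 matches and 28 CpG dinucleotides. The median over 35116 RefSeq promoter windows was 14 CpG dinucleotides, and 45.0% of the windows held GGGCGG on either strand.

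Part of the CDKN2A transcript cannot be assigned without doubt. CDKN2B, which encodes p15INK4b, lies next to CDKN2A. Of the 50-base words of CDKN2A transcripts 10% also occurred in transcripts of other genes. These were 9.05% in the antisense RNA CDKN2B-AS1 on the opposite strand, which is not analysed here, and 0.951% in CDKN2B. The strand setting of the counting is not given in the sources used here. For the CIP/KIP genes, CDKN2C, CDKN2D and RB1 the share was 0%, for CDKN2B 0.769%, for RBL1 4.17%, and for RBL2 15.2%, of which AKTIP, an overlapping gene on the opposite strand at 2.60 FPKM, held 10.6%.

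Genes on both sides of CDKN2A were also transcribed. MTAP, the methylthioadenosine phosphorylase gene that is often lost together with CDKN2A in tumours, lies 30.1 kb away. It was at 17.8, 17.7 and 18.6 FPKM in rhCCL20 replicates 1 to 3 and at 17.9, 17.7 and 17.0 FPKM in vehicle replicates 1 to 3. The ratio of CDKN2A to MTAP lay between 0.883 and 0.980 in all 6 libraries. On the other side, CDKN2B at 7.60 kb averaged 5.14 FPKM and DMRTA1 at 452 kb averaged 1.97 FPKM. KLHL9, FOCAD and MLLT3, which lie on the side of MTAP, averaged 11.8, 7.15 and 4.89 FPKM. Of the 10 listed neighbours in the files 5 averaged below 1 FPKM, among them the interferon genes IFNA1 and IFNB1, which were listed at 0 in every library.

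**Figure D1:**
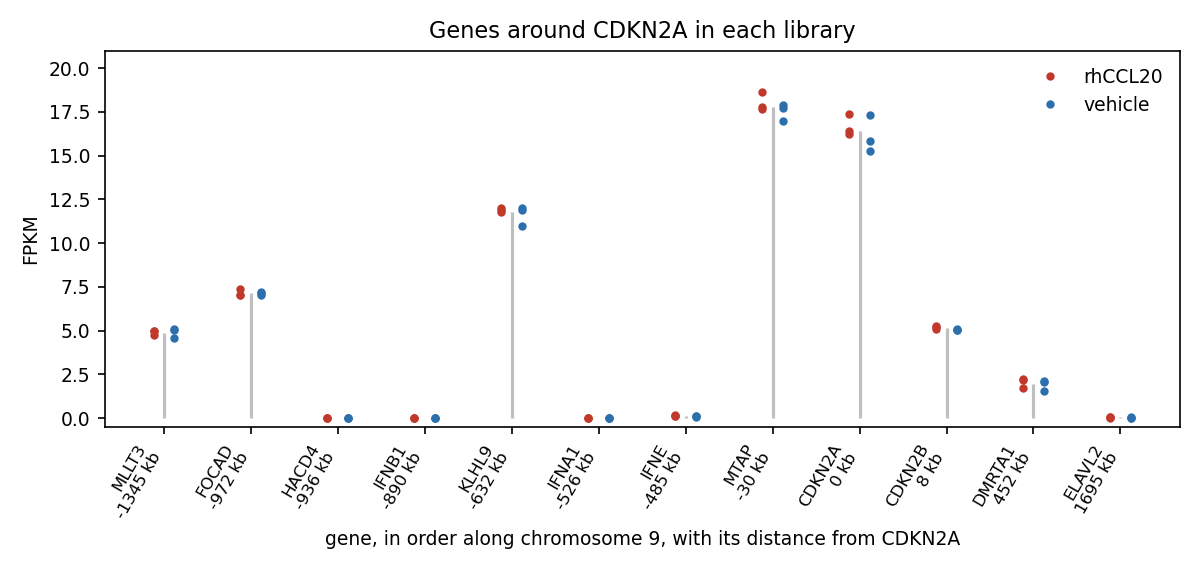
FPKM (vertical axis) of CDKN2A, CDKN2B and 10 neighbours in order along chromosome 9, with the distance from CDKN2A under each name; points are the 3 rhCCL20 (red) and 3 vehicle (blue) libraries and grey lines reach to the mean of the 6. MTAP at 17.8 FPKM and CDKN2A at 16.4 FPKM are the highest of the genes plotted, and IFNA1 and IFNB1 are at 0.

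The 10 genes spanned levels from 2.52 FPKM for CDKN2D to 172 FPKM for CDKN1C. From high to low the means over the 6 libraries ran CDKN1C at 172, CDKN1A at 49.6, CDKN2C at 31.0, CDKN1B at 23.0, CDKN2A at 16.4, RB1 at 14.3, RBL2 at 7.75, RBL1 at 6.34, CDKN2B at 5.14 and CDKN2D at 2.52 FPKM. Most neighbours in this order did not overlap in range over the 6 libraries. The exceptions were CDKN2A with RB1, where CDKN2A was the higher in 5 of 6 libraries, and RBL2 with RBL1, whose ranges overlapped although RBL2 was the higher in 6 of 6.

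**Figure D2:**
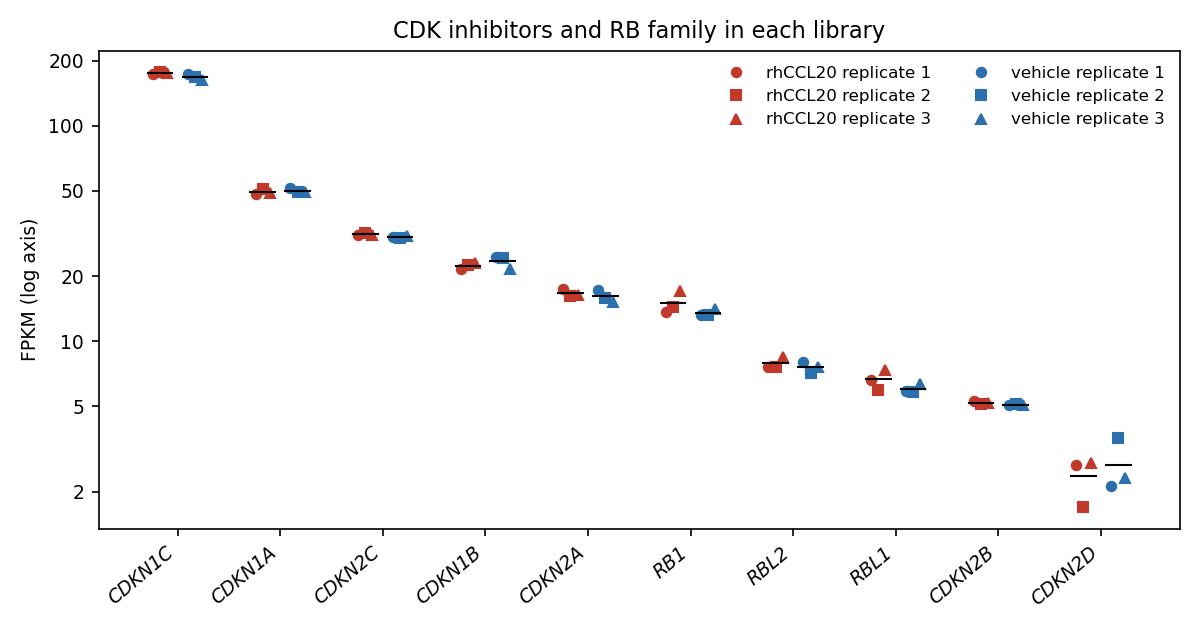
FPKM (log axis) of each CDK inhibitor and RB family gene in the 3 rhCCL20 libraries (red, left) and the 3 vehicle libraries (blue, right), ordered by mean, with black bars at the group means. CDKN1C is the highest, at 172 FPKM. The libraries of CDKN2D spread most, from 1.71 to 3.57 FPKM, and those of RB1 run from 13.2 to 17.1 FPKM.

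CDKN1C dominated the CIP/KIP transcripts. It encodes p57KIP2, is expressed mainly from the maternal allele, and lies on chromosome 11 from 2883213 to 2885773 on the minus strand. Its level was 173, 177 and 176 FPKM in rhCCL20 replicates 1 to 3 and 174, 168 and 163 FPKM in vehicle replicates 1 to 3. Vehicle replicate 1 lay within the rhCCL20 range, so the groups overlapped, and the mean stood at percentile 97.4 of the tested genes. Its share of the summed CIP/KIP level was 71.0% ± 0.32 with rhCCL20 and 69.6% ± 0.11 in vehicle (SD, n = 3 each). The ratio of CDKN1C to CDKN1A was 3.60, 3.47 and 3.62 in rhCCL20 replicates 1 to 3 and 3.41, 3.40 and 3.32 in vehicle replicates 1 to 3. For the share and for the ratio all 3 rhCCL20 values lay above all 3 vehicle values, although CDKN1C and CDKN1A each overlapped between the groups. Both were singled out after their values were seen. How often shares or ratios of other genes separate the groups was not tested. An exact two-sided permutation test of 3 libraries against 3 can give no p below 0.1.

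CDKN1A varied little between libraries and CDKN1B more. CDKN1A, which encodes p21CIP1, lies on chromosome 6 from 36676460 to 36687339 on the plus strand. It was at 48.1, 50.9 and 48.5 FPKM in rhCCL20 replicates 1 to 3, against 51.2, 49.5 and 49.1 FPKM in vehicle replicates 1 to 3. The ranges overlapped, and the coefficient of variation over the 6 libraries was 2.54%, where the median of 967 tested genes within 1.5-fold of its level was 3.65%. CDKN1B encodes p27KIP1, which the SKP2 ubiquitin ligase marks for degradation, and lies on chromosome 12 from 12715058 to 12722371 on the plus strand. It was at 21.6, 22.5 and 23.1 FPKM in rhCCL20 replicates 1 to 3, against 24.7, 24.3 and 21.6 FPKM in vehicle replicates 1 to 3, with vehicle replicate 3 inside the rhCCL20 range. Its coefficient of variation of 5.75% stood at percentile 76.4 of 1836 tested genes within 1.5-fold of its level, whose median was 4.18%.

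Among the INK4 genes CDKN2C was the most abundant. It encodes p18INK4c and lies on chromosome 1 from 50960745 to 50974633 on the plus strand. It was at 31.2, 32.0 and 31.3 FPKM in rhCCL20 replicates 1 to 3, against 30.6, 30.3 and 30.7 FPKM in vehicle replicates 1 to 3, and made up 56.5% ± 1.5 and 56.1% ± 1.2 of the summed INK4 level in these groups (SD, n = 3 each). CDKN2B, on chromosome 9 from 22002903 to 22009363 on the minus strand, was at 5.28, 5.12 and 5.20 FPKM in rhCCL20 replicates 1 to 3, against 5.04, 5.11 and 5.06 FPKM in vehicle replicates 1 to 3. In both genes every rhCCL20 library lay above every vehicle library, by narrow margins, the means differing by a factor of 1.03 for CDKN2C and 1.02 for CDKN2B. Groups that do not overlap with rhCCL20 higher were found for 6.88% of the tested genes, and for 2 of these 10. The coefficient of variation of CDKN2B was 1.73%, below that of all but 0.541% of the 2405 tested genes within 1.5-fold of its level.

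CDKN2D varied most. It encodes p19INK4d and lies on chromosome 19 from 10566462 to 10569059 on the minus strand. It was at 2.68, 1.71 and 2.73 FPKM in rhCCL20 replicates 1 to 3, against 2.12, 3.57 and 2.33 FPKM in vehicle replicates 1 to 3. The lowest value was in rhCCL20 replicate 2 and the highest in vehicle replicate 2. Its coefficient of variation of 25.3% stood at percentile 98.6 of 1764 tested genes within 1.5-fold of its level, whose median was 7.90%. Its log2 fold change, -0.12 with all libraries, was 0.03 when rhCCL20 replicate 2 was left out and 0.05 when vehicle replicate 2 was left out.

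The RB family genes were each highest in rhCCL20 replicate 3. RB1, the retinoblastoma tumour suppressor gene, lies on chromosome 13 from 48303726 to 48599436 on the plus strand. It was at 13.7, 14.5 and 17.1 FPKM in rhCCL20 replicates 1 to 3, against 13.2, 13.3 and 14.1 FPKM in vehicle replicates 1 to 3. The groups overlapped, and replicate 3 stood at 1.24 times the mean of the other 5 libraries, a factor reached by 4.69% of the tested genes. LPAR6, which lies within RB1 on the opposite strand, averaged 0.0598 FPKM. RBL1 encodes p107, and lies on chromosome 20 from 36996349 to 37095995 on the minus strand. It was at 6.65, 5.93 and 7.39 FPKM in rhCCL20 replicates 1 to 3, against 5.87, 5.82 and 6.36 FPKM in vehicle replicates 1 to 3. RBL2 encodes p130, the pocket protein of resting cells, and lies on chromosome 16 from 53433977 to 53491649 on the plus strand. It was at 7.62, 7.59 and 8.49 FPKM in rhCCL20 replicates 1 to 3, against 8.02, 7.16 and 7.61 FPKM in vehicle replicates 1 to 3. For all 3 genes the groups overlapped. The coefficients of variation of RB1, RBL1 and RBL2 were 9.89%, 9.62% and 5.85%. These stood at percentiles 94.9, 85.7 and 52.9 of the tested genes within 1.5-fold of each level. On the first principal component of all tested genes, rhCCL20 replicate 3 was at 11.7 and the other 5 libraries were between -3.96 and -0.74. Of all tested genes 37.1% were highest in this library. When it was left out, the log2 fold change was 0.05 for RB1, where all libraries gave 0.14. It was likewise 0.05 for RBL1, where all gave 0.12, and 0.0022 for RBL2, where all gave 0.05.

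**Figure D3:**
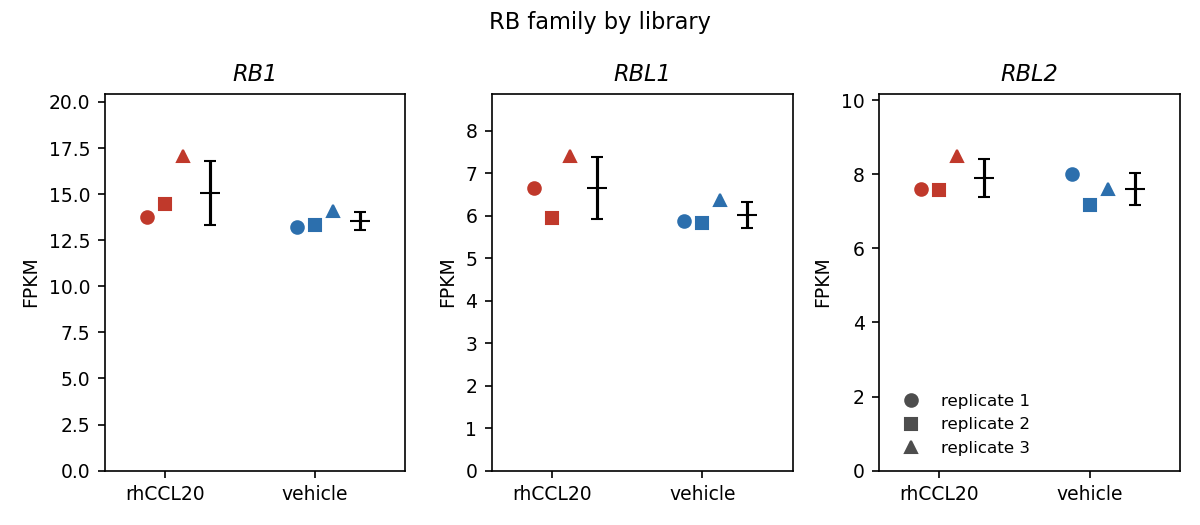
FPKM of RB1, RBL1 and RBL2 in each library, rhCCL20 at the left and vehicle at the right of each panel, with the mean and SD of 3 libraries beside the points; axes start at 0. In each panel the highest point is rhCCL20 replicate 3, at 17.1, 7.39 and 8.49 FPKM.

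The RBL1 promoter is shown because RBL1 is itself a known E2F target, and so both a partner and a target of the factors the family binds. The window lies at chr20:37095948-37096247 on the minus strand (RefSeq, GRCh38.p14).
RBL1 promoter: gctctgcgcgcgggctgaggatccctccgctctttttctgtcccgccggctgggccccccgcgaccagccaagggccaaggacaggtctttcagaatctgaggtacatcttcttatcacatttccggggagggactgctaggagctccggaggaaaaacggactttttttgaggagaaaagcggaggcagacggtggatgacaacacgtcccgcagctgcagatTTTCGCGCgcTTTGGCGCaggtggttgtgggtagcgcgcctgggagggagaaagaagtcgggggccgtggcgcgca
Capitals mark matches to the E2F motif spelled TTTCGCGC or TTTGGCGC, searched on both strands together with GGGCGG and with TTTGAA, the letters of the CHR element bound by MuvB complexes. This window held 0 matches to GGGCGG and 0 to TTTGAA, which 15.2% of all windows held. Each E2F spelling occurred 1 time, with no overlap between them. Of all 35116 RefSeq promoter windows 1.15% held either spelling and 0.0199% held both. Promoter windows were found for 9 of the 10 genes, and in the windows of the other 8 neither spelling occurred. The window of RB1 lies inside the gene, at a start downstream of its first exon. CDKN1C had no entry.

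The comparison of rhCCL20 with vehicle asked whether the chemokine shifts transcripts of these cell cycle inhibitors, and no gene of the group passed the test. CDKN1C averaged 175 ± 1.9 FPKM with rhCCL20 and 168 ± 5.9 FPKM in vehicle, CDKN2A 16.7 ± 0.63 and 16.2 ± 1.0 FPKM, and RB1 15.1 ± 1.7 and 13.6 ± 0.48 FPKM in the same order of groups (SD, n = 3 each). In limma on log2(FPKM + 1), fitted over 10263 genes with Benjamini-Hochberg adjustment at a threshold of 0.05, 0 of the 10 rose and 0 fell. Over all tested genes 1 passed, or 0.00974%. None of the 10, against 4.73% of all tested genes, had an unadjusted p under 0.05. The smallest limma p was 0.0785 for RB1, and adjusted p-values lay between 0.937 and 0.969.

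The fold changes were small and, on the scale of log2(FPKM + 1), their limits were narrow except for CDKN2D. The log2 fold change was above 0 for 7 of the 10 and for 57.8% of all tested genes, with a median of 0.04 for the 10 and 0.01 for all. It was -0.02 for CDKN1A (95% interval of limma -0.11 to 0.06), -0.07 for CDKN1B (-0.19 to 0.06) and 0.06 for CDKN1C (-0.02 to 0.14). Among the INK4 genes it was 0.05 for CDKN2A (-0.07 to 0.16), 0.03 for CDKN2B (-0.08 to 0.14), 0.04 for CDKN2C (-0.04 to 0.12) and -0.12 for CDKN2D (-0.47 to 0.23). The RB family genes were at 0.14 for RB1 (-0.02 to 0.30), 0.12 for RBL1 (-0.04 to 0.28) and 0.05 for RBL2 (-0.09 to 0.18). Both ends of the interval stayed inside 1.25-fold of FPKM + 1 for 9 of the 10, all but CDKN2D, and for 95.0% of all tested genes. They stayed inside 1.5-fold for 10 of the 10, against 99.6%. The scale of log2(FPKM + 1) understates changes of low genes, which concerns CDKN2D most. The counts inside 1.25-fold and 1.5-fold therefore hold for FPKM + 1 and were not taken on FPKM itself.

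**Figure D4:**
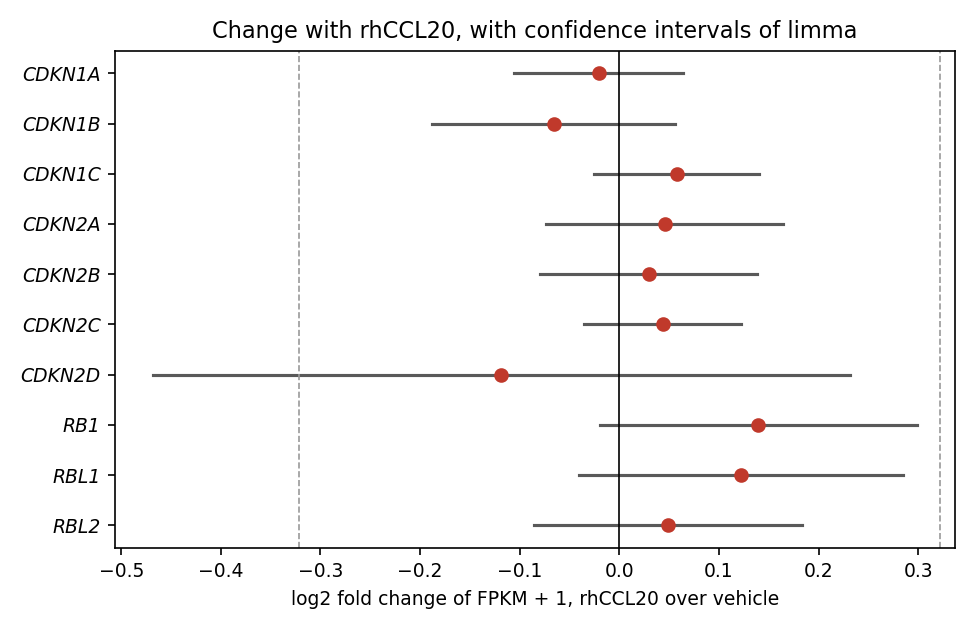
Log2 fold change of FPKM + 1, rhCCL20 over vehicle (horizontal axis), with the 95% interval of limma for each gene; dashed lines mark a change of 1.25-fold in either direction. Every interval includes 0, and the interval of CDKN2D, from -0.47 to 0.23, is the widest.

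The transcripts of the proteins that the inhibitors bind were uneven in level. CDK4, the kinase that INK4 proteins bind, was at 82.8 ± 1.6 FPKM with rhCCL20 and 85.2 ± 3.5 FPKM in vehicle, and its relative CDK6 at 2.85 ± 0.58 and 2.42 ± 0.078 FPKM (SD, n = 3 each). CDK4 was thus 24.4 to 37.7 times as abundant as CDK6 over the 6 libraries. Of the D-type cyclins, CCND3 led with 32.1 ± 2.7 FPKM in rhCCL20 and 31.5 ± 0.77 FPKM in vehicle libraries. CCND1 was at 3.46 ± 0.34 and 3.41 ± 0.19 FPKM in these groups (SD, n = 3 each). CCND2 stayed below 1 FPKM, at 0.269, 0.282 and 0.173 FPKM in rhCCL20 replicates 1 to 3 and 0.223, 0.918 and 0.868 FPKM in vehicle replicates 1 to 3, and was not tested. The summed INK4 level was 0.651 ± 0.015 times that of CDK4 and CDK6 with rhCCL20 and 0.622 ± 0.023 times in vehicle (SD, n = 3 each), and the ranges overlapped. These are ratios of transcripts, not of proteins.

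CDK2, bound by CIP/KIP proteins, was at 105 ± 3.4 FPKM with rhCCL20 and 106 ± 2.5 FPKM in vehicle (SD, n = 3 each). Its cyclins CCNE1 and CCNE2 were at 18.7 ± 0.64 and 13.8 ± 0.57 FPKM with rhCCL20 and at 19.4 ± 0.89 and 13.7 ± 0.71 FPKM in vehicle (SD, n = 3 each). The summed CIP/KIP level was 2.35 ± 0.041 times that of CDK2 with rhCCL20 and 2.29 ± 0.11 times in vehicle (SD, n = 3 each). Of the E2F factors, the activator E2F1 and the repressor E2F4 were the most abundant, averaging 31.8 and 29.5 FPKM over the 6 libraries. E2F2, E2F3 and E2F5 averaged 5.16, 7.16 and 2.54 FPKM. E2F5, a partner of RBL2, was at 2.33, 2.40 and 2.56 FPKM in rhCCL20 replicates 1 to 3 and at 2.67, 2.63 and 2.63 FPKM in vehicle replicates 1 to 3. All rhCCL20 values of E2F5 lay below all vehicle values, as for 4.13% of tested genes, with a limma adjusted p of 0.937.

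**Figure D5:**
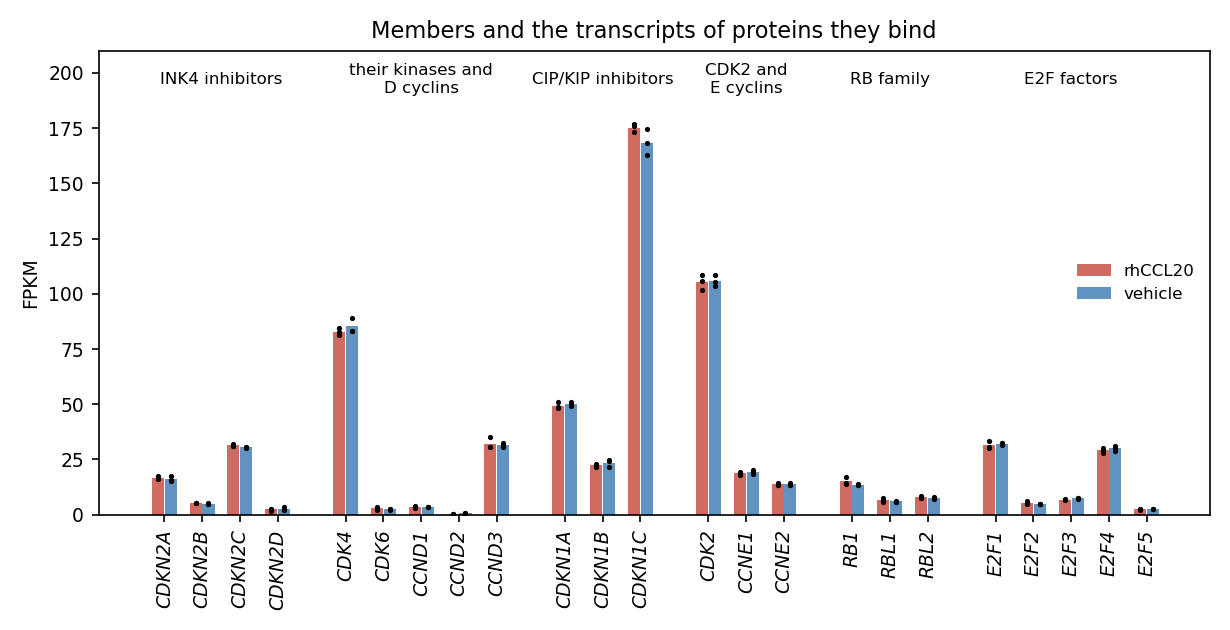
FPKM of the inhibitors and RB family genes beside the transcripts of proteins they bind; bars are group means (rhCCL20 red, left; vehicle blue, right), starting at 0, and black points are the 3 libraries of each group. CDKN1C at 172, CDK2 at 106 and CDK4 at 84.0 FPKM are the 3 highest genes plotted, and CDK6 and CCND2 are low.

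Further genes of the pathway, in 12 lists, did not pass either, and not every list is described singly. Of 136 genes listed 133 were in the files and 119 were tested, and in limma 0 rose and 0 fell. An unadjusted p under 0.05 was found for 3 of them, or 2.52%, against 4.73% of all tested genes, and the smallest adjusted p was 0.937. The groups did not overlap for 13 of the 119, or 10.9%, against 11.0% of all tested genes. List medians of the log2 fold change lay between -0.01 and 0.05, where that of all tested genes was 0.01.

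None of the genes that E2F factors are known to drive passed the test. In the 19 E2F target genes 0 rose and 0 fell, with a median log2 fold change of 0.03. PCNA, the sliding clamp of DNA polymerase, was the highest at 246 ± 7.0 FPKM with rhCCL20 and 242 ± 3.7 FPKM in vehicle (SD, n = 3 each). The 10 E2F and DP factors had a median of -0.01, with TFDP1, the DNA-binding partner of E2F factors, at 55.1 ± 0.37 and 52.9 ± 1.1 FPKM. The 8 genes of the MuvB core and its partners had a median of 0.04. The core, without MYBL2 and FOXM1, forms the DREAM repressor complex with RBL1 or RBL2. The smallest p of that list was that of LIN52 at 1.94 ± 0.016 and 1.74 ± 0.074 FPKM, and the highest level that of MYBL2 at 90.9 ± 2.9 and 92.8 ± 2.0 FPKM (rhCCL20 and vehicle, SD, n = 3 each).

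Cyclins, kinases and turnover genes had medians close to that of all genes. The median was 0.02 for 4 tested D-type cyclins and their kinases, with CDK6 at a log2 fold change of 0.16. For CDK6 it was 0.05 when rhCCL20 replicate 3 was left out and 0.27 when rhCCL20 replicate 2 was left out. The median was -0.01 for 15 tested E, A and B cyclins, kinases and regulators, with the phosphatase gene CDC25C at 0.09 and the mitotic cyclin gene CCNB1, the most abundant at 113 FPKM, at -0.02. For 9 ubiquitin ligase genes that act on CIP/KIP proteins it was 0.01, with DTL, which targets p21CIP1, at 0.06 (0.03 when rhCCL20 replicate 3 was left out) and CKS1B, the cofactor of SKP2 for p27KIP1, at 0.01 and 148 FPKM. In each of these lists 0 genes rose and 0 fell.

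Regulators upstream of the inhibitors were measured as well. MDM2, a ubiquitin ligase, was at 14.6, 14.2 and 15.8 FPKM in rhCCL20 replicates 1 to 3, against 14.5, 13.4 and 14.3 FPKM in vehicle replicates 1 to 3, and the groups overlapped. For the 17 tested upstream factors the median of the log2 fold change was 0.02, with MYC, which represses CDKN1A and CDKN2B, the highest at 87.0 FPKM over the 6 libraries and SMAD2 at 0.10. Among 9 Polycomb and other regulators of the INK4 locus the median was 0.04 and 2 had an unadjusted p under 0.05, where 4.73% of all tested genes did. BMI1, a Polycomb protein that represses CDKN2A, was at 32.8, 33.0 and 32.3 FPKM in rhCCL20 replicates 1 to 3, against 29.9, 30.2 and 30.2 FPKM in vehicle replicates 1 to 3. All rhCCL20 values of BMI1 lay above all vehicle values, as for 6.88% of tested genes, and the log2 fold change of 0.12 (SE 0.035) had a limma adjusted p of 0.937. The other was SUZ12, a subunit of the Polycomb repressive complex with EZH2, at 31.0 ± 1.1 FPKM with rhCCL20 and 28.6 ± 0.50 FPKM in vehicle (SD, n = 3 each), named after its values were seen.

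Of the imprinted neighbours of CDKN1C, PHLDA2 was abundant as well. PHLDA2, 42.5 kb away and like CDKN1C expressed mainly from the maternal allele, was at 134, 124 and 145 FPKM in rhCCL20 replicates 1 to 3, against 114, 128 and 124 FPKM in vehicle replicates 1 to 3. The groups overlapped, with a log2 fold change of 0.14 and a limma adjusted p of 0.937. The log2 fold change of PHLDA2 was 0.08 when rhCCL20 replicate 3 was left out, 0.19 when rhCCL20 replicate 2 was, and 0.09 when vehicle replicate 1 was. KCNQ1 averaged 3.14 FPKM, SLC22A18 4.76 FPKM and IGF2 0.00914 FPKM over the 6 libraries. The listed neighbours NAP1L4, CD81, CARS and TSSC4 averaged 72.9, 45.1, 11.9 and 4.16 FPKM. The median log2 fold change was 0.05 over the 7 tested neighbours of CDKN1C and 0.01 over the 4 tested neighbours of RB1, with SUCLA2 at 0.07 (0.04 when rhCCL20 replicate 2 was left out) and ITM2B, the most abundant, at 59.1 FPKM. Of the 5 tested neighbours of CDKN2A and CDKN2B the median was 0.03. In these lists 0 genes rose and 0 fell.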

How the data were processed

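Total RNA of 6 samples was extracted with Trizol and made into libraries with an Illumina TruSeq kit, per the labels' protocols. GRCh38 and the tools HTSeq, Cufflinks, HISAT2 and Trimmomatic are listed in the submitters' processing notes. The sources used here state neither the strand setting, the annotation nor any filter. The deposited values are FPKM, 1 per symbol and library, per the file headers. They hide the number of fragments, so no counting intervals are given. Relative depth, read from the spacing of low values, lay between 1.01 and 1.09 with rhCCL20 and between 0.954 and 1.00 in vehicle (vehicle replicate 1 set to 1). By this reading every rhCCL20 library was deeper than every vehicle library, so depth and treatment cannot be told apart. Summed FPKM lay between 301805 and 310080.

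The test was limma 3.58.1 (R 4.3.3) on log2(FPKM + 1), with treatment alone in the model and a trended eBayes, for genes that reached 1 FPKM in 3 or more libraries. The procedure was tested on simulated data. Group members, gene lists and tests were chosen with earlier results of these data known. Named are all 10 genes, the proteins they bind, MDM2 and MTAP, and of each list the gene with the smallest p and the highest mean. Other genes named serve as examples chosen after their values were seen. Some items that this rule names are not reported here. Shared words are from GENCODE transcripts and promoters from RefSeq (GRCh38.p14).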

Additional observations from a re-analysis of the deposited data

How the results depend on the processing

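The count of 0 genes of the group past the threshold in limma, and of 0 pathway genes, held under all 15 alternatives run, which were 2 other pseudocounts, 2 other filters, 2 normalizations, 2 eBayes settings, a replicate block, and the removal of each library in turn. Over all tested genes the count of 1 was 0 with no filter on low values, where 16355 genes were tested, and lay between 1 and 3 when each library was left out, with 3 without vehicle replicate 1, namely GAGE12G, LYZ and S100A9. With the replicate block 1 gene passed over all genes and 0 of the 10, and 1 of the 10 had an unadjusted p under 0.05. Deviations from the group means of libraries with the same number had correlations of -0.10, 0.03 and 0.10. Those of libraries with different numbers lay between -0.12 and 0.13. No pairing by number was seen, but 3 libraries per group can hardly exclude it. Of 149 alternative fold changes of the 10 genes, sign changes occurred for CDKN2D only, in 2 of its 14 alternatives, and the smallest adjusted p in limma was 0.716. With a pseudocount of 0.1 the log2 fold change of CDKN2D was -0.16. Unadjusted p-values under 0.05 appeared for RB1 with the replicate block and without rhCCL20 replicate 1, for RBL1 without rhCCL20 replicate 2, and for CDKN1B without vehicle replicate 3. For RB1 the log2 fold change lay between 0.05 and 0.20 when each library was left out. Since the number of fragments is unknown, the counting error of low genes such as CDKN2D could not be given here.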

Other observations

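SMAD4, the common mediator of TGF-beta signalling through which CDKN2B is known to be induced, was close to 0. It was at 0.0506, 0.0589 and 0.0472 FPKM in rhCCL20 replicates 1 to 3 and at 0.0517, 0.0984 and 0.0418 FPKM in vehicle replicates 1 to 3, while its partners SMAD2 and SMAD3 averaged 3.83 and 4.35 FPKM over the 6 libraries. SMAD4 is singled out here after its values were seen, and it was below the filter and not tested.

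The genes most like 3 members over the 6 libraries were found by Pearson's r of log2(FPKM + 1), as a description of libraries that share a kit. For RB1 they were NAA60 at 0.997 and PCGF5 at 0.990, and 449 tested genes, or 4.38%, reached 0.9. Without rhCCL20 replicate 3 these were at 0.976 and 0.916. For CDKN1A they were ATP5PD at 0.983 and ARGLU1 at 0.979, with 43 genes, or 0.419%, at 0.9 or more. For CDKN2A they were CLNS1A at 0.982 and CSPP1 at 0.963, with 34 genes, or 0.331%, at 0.9 or more. Without rhCCL20 replicate 3 the values were 0.981 for ATP5PD, 0.975 for ARGLU1, 0.992 for CLNS1A and 0.997 for CSPP1. The remaining libraries are among those on which the genes were picked, so these values are no separate check. Whether unrelated genes would reach such r over 6 libraries as often was not tested.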
